A study of Xenopus laevis with 4 samples.

Results

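The genes described here encode the proteins that license origins of DNA replication, open them and copy the DNA. A probe set was taken when the platform annotation gave it 1 gene symbol and that symbol, read without the suffix L or S, began with mcm, orc, gins, rfc, rpa, pola, pold, pole or prim followed by a digit, or was cdc6, cdt1, cdc45, cdc7, dbf4, pcna, fen1, lig1, rrm1, rrm2, top2a or wdhd1. Of 32635 probe sets in the table, 69 met this rule, for 59 gene symbols and 48 genes when the copies are merged. Geminin was left out by the rule, the catalytic subunit gene pole carries no digit and fell outside it, and rrm2 was not analysed here. The suffixes L and S name the homeologous copies of a gene in Xenopus laevis, an allotetraploid frog, and 11 of the genes had both copies among the members.

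The samples were explants of presumptive ectoderm, or animal caps, from embryos injected at the 2-cell stage with RNA. They were cut at stage 9 to 10, kept as explants in Danilchik's medium with 0.1% BSA, and harvested at the equivalent of stage 12. The caps had received ICD RNA on 2 arrays, DBM RNA on 1 and HMM RNA on 1. The labels name no strain or transgene, all 4 arrays are of injected caps, and no uninjected array was analysed here. ICD usually stands for the intracellular domain of Notch, an active form that needs no ligand, and DBM for a DNA-binding mutant of the Notch effector Su(H), which blocks the pathway. The labels do not spell out HMM. They name no clutch, so the p-values measure only the spread between the ICD arrays, which may be technical. Precision is limited throughout by there being 4 arrays.

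In G1 phase the origin recognition complex, together with Cdc6 and Cdt1, loads the ring of MCM2 to MCM7 onto DNA, which licenses the origin. The kinase Cdc7 with its partner Dbf4 then helps to turn that ring into the active helicase by joining it to Cdc45 and GINS, and polymerases, the clamp PCNA and its loader RFC copy both strands behind it. Geminin binds Cdt1 and keeps an origin from being licensed again in the same cycle. Early Xenopus embryos run fast cycles on maternal stores of these proteins, and in the ectoderm the multiciliate cells leave the cycle while neighbouring progenitors go on dividing.

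The deposited values are MAS5 signals, and here each array was rescaled to a common trimmed mean, because the trimmed mean of ICD replicate 1 was 150.7, low beside the 376.8 to 408.9 of the other arrays. Differences are on the scale log2(rescaled signal + 17.99), relative to the array's mean, and understate the change of dim probe sets. The filter on dim probe sets left 19523 for testing and 67 of the 69 members. The members that did not pass it were cdc45.S, at 30.0 and 19.1 with ICD, 6.37 with DBM and 23.6 with HMM, and the dimmer of the top2a.L probe sets, at 5.47 and 28.4 with ICD, 35.7 with DBM and 13.8 with HMM. Across the whole tested table, r was 0.96 between the ICD arrays and 0.95 between DBM and HMM. Over the 67 members the order differed, with r = 0.97 for ICD replicate 1 with HMM and 0.97 for ICD replicate 2 with DBM, against 0.95 between the ICD arrays and 0.94 between DBM and HMM. These correlations run over probe sets that share an array and a binding strength, so they describe the arrays and carry no test.

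Across the whole group, 2 of 67 members passed the test against the DBM and HMM mean, the licensing factor genes cdc6.L and cdt1.L (1 of its 3 probe sets), both higher with ICD, which is 2.99% of them. Over all tested probe sets 3.93% passed in either direction, 1.9% higher and 2.04% lower, so the share of members called was near the background. The members differed from the table more in their small values. Their median was 0.25 against -0.01 over all tested probe sets, and 56 of 67, or 83.6%, were above 0 against 48.4% over all. The median was 0.10 without the DBM array and 0.38 without the HMM array. Without rescaling it was -0.46 and 6 of 67 were above 0, with the members 0.20 above the median of the table against 0.26 with rescaling. An unadjusted limma p under 0.05 was reached by 9 members on the higher side, or 13.4%, and 0 on the lower side, against 5.87% higher and 8.27% lower over all. Of these 9, 5 were cdc6 and cdt1 probe sets, 3 MCM2 to MCM7 and 1 RPA, so this count came from few roles and the other roles gave 0. Both ICD arrays lay above DBM and HMM on 29 members, 43.3% against a background of 19.3%, and below both on 2 members, 2.99% against 22.8%. These shares describe the list and carry no test of their own, and in bulk explants fewer cells of a type and less RNA per cell cannot be told apart.

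**Figure D1:**
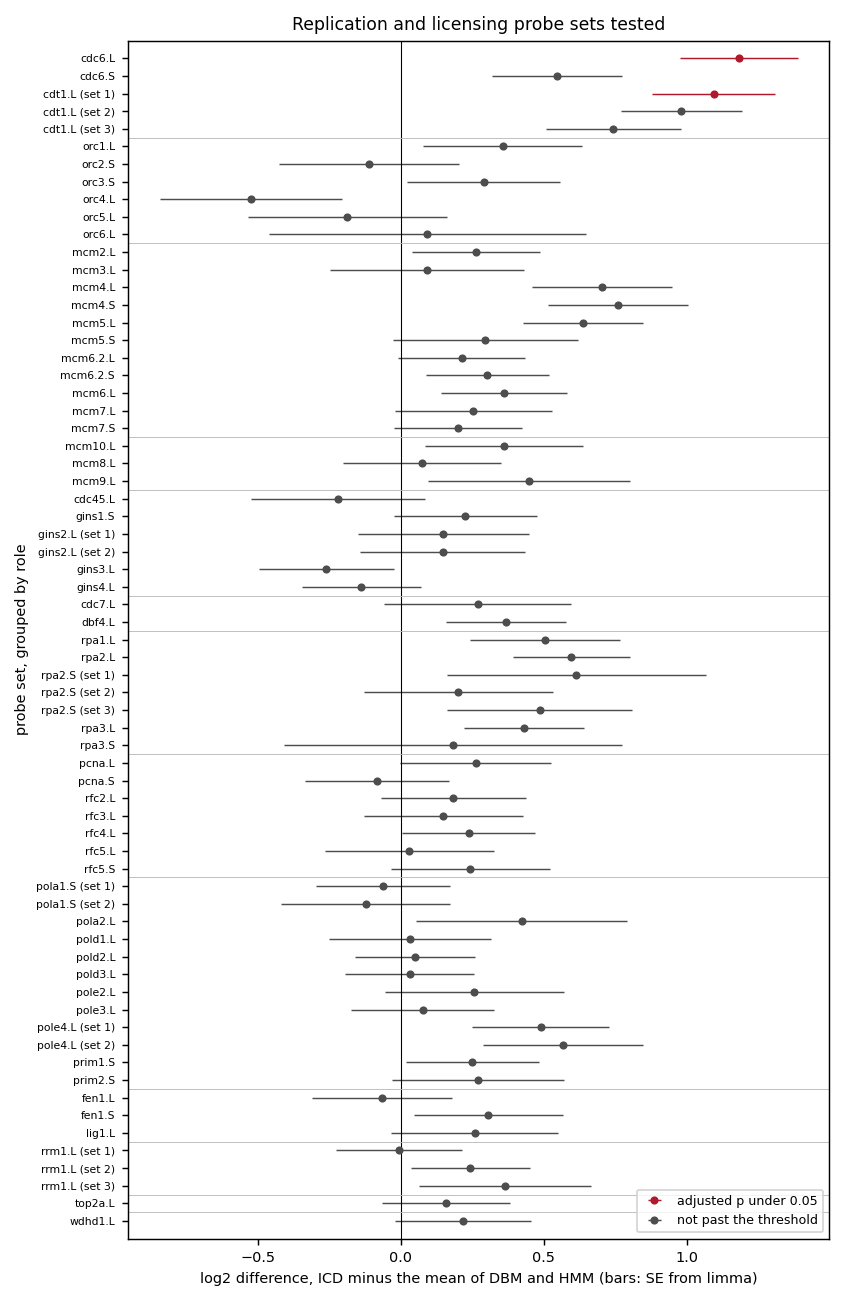
Log2 difference of ICD from the mean of DBM and HMM for each of the 67 tested probe sets, with SE bars from limma, grouped by role from cdc6 and cdt1 at the top to wdhd1.L at the bottom. The 2 probe sets past the threshold, cdc6.L at 1.18 and the brightest of cdt1.L at 1.09, are in red, and 56 of the 67 values lie above 0.

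In the caps with ICD, cdc6.L and the brighter probe sets of cdt1.L, both licensing factor genes, stood furthest above the mean of DBM and HMM among the members. The L copy of cdc6 (Entrez Gene 403388), whose product helps to load the MCM ring, had a rescaled signal of 1698 and 1668 on the ICD arrays, 835 on the DBM array and 641 on the HMM array. Both ICD arrays lay well above the other arrays and almost on each other. The log2 difference from the mean of the DBM and HMM arrays was 1.18 ± 0.21 (SE), a 2.27-fold rise (limma, adjusted p = 0.0292). For its other copy cdc6.S (Entrez Gene 398082) the signals were 607 and 716 with ICD, 347 with DBM and 571 with HMM. There the ICD arrays were above both others, but ICD replicate 1 was close to HMM, and the difference of 0.55 ± 0.23 (SE) did not pass the limma test (adjusted p = 0.348).

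The gene of Cdt1, the partner of Cdc6 in loading and the target of geminin, was measured by 3 probe sets of cdt1.L (Entrez Gene 398024). The brightest gave 2119.6 and 1797 with ICD, 858 with DBM and 953 with HMM, a rise of 1.09 ± 0.22 (SE) on the log2 scale (limma, adjusted p = 0.043). On the next the signals were 1327 and 1512 with ICD, 741 with DBM and 679 with HMM, a difference of 0.98 ± 0.21 (adjusted p = 0.0589). The dimmest gave 847 and 1126 with ICD, 639.8 with DBM and 519 with HMM, a difference of 0.74 ± 0.24 (adjusted p = 0.185). The arrays of ICD and of the other RNAs did not overlap on any of the cdt1.L probe sets, although 1 of the 3 passed the threshold. Over all tested probe sets 19.3% had both ICD arrays above the others and 22.8% both below. The 3 probe sets measure 1 gene on the same arrays, so they are not separate evidence. Neither call was kept without the DBM array, without the HMM array, with DBM and HMM combined as 1 group, or without the dim filter, the intensity trend or the rescaling. The test without an ICD array was run only with DBM and HMM combined, so that both choices changed together, and the calls were lost there too. In these settings the adjusted p of cdc6.L ran from 0.0545 to 0.953 and that of the brightest cdt1.L probe set from 0.0539 to 0.953. The log2 difference of cdc6.L stayed at 1.18 without the filter, without the trend or with 1 combined group, and was 1.37 without DBM and 1.00 without HMM. It dropped to 0.47 without rescaling, and that of the brightest cdt1.L probe set to 0.38. The median of all tested probe sets was -0.66 in that setting. The median of the cdc6 and cdt1 probe sets stood 0.93 above the table there, against 0.99 with rescaling.

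For geminin the difference between ICD and the other RNAs was larger than for either of these genes. Its copy gmnn.L had signals of 5942 and 4190.2 with ICD, 318 with DBM and 496 with HMM, a 12.1-fold difference (limma, adjusted p = 0.00117), and its copy gmnn.S differed 9.30-fold. For the brightest probe set of cdt1.L, the gene of the protein geminin binds, the difference was 2.14-fold.

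**Figure D2:**
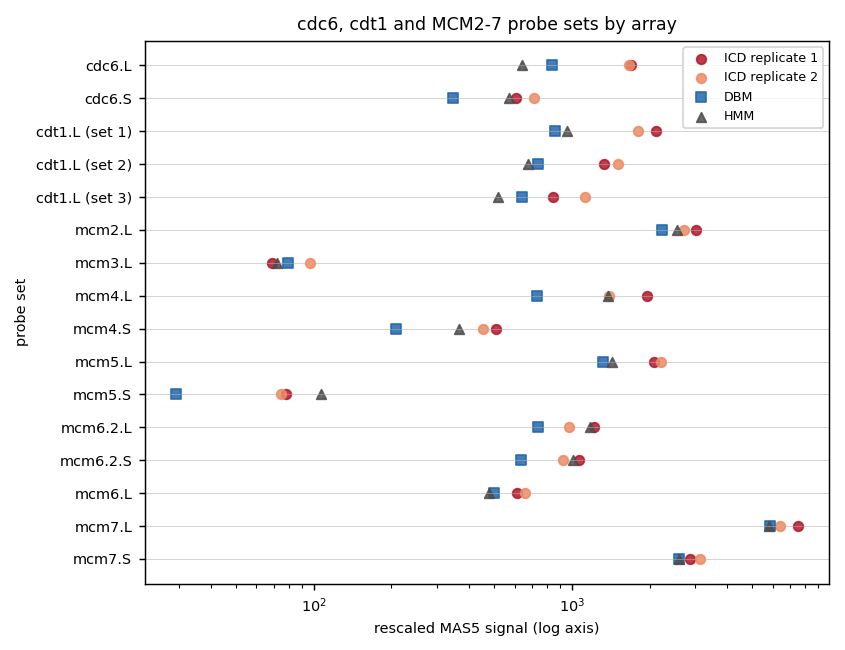
Rescaled MAS5 signal (log axis) of each tested probe set of cdc6, cdt1 and the MCM2 to MCM7 genes on each array, with probe sets of 1 gene numbered from the brightest. ICD replicates are circles, DBM squares and HMM triangles, and cdc6.L at 1698 and 1668 with ICD against 835 with DBM and 641 with HMM shows the widest gap, while HMM lies above at least 1 ICD array for mcm3.L, mcm5.S, mcm6.2.L and mcm6.2.S.

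Of the 11 MCM2 to MCM7 probe sets, which encode the ring of the replicative helicase, all had a positive difference, from 0.09 to 0.76 with a median of 0.30, and 0 passed the test in either direction. Without rescaling the ring's median was -0.41, where that of all tested probe sets was -0.66, so it stood 0.25 above the table there and 0.31 above it with rescaling. On 7 of them both ICD arrays lay above DBM and HMM, against 19.3% of all tested probe sets, and on 0 below both, against 22.8%. The largest difference was that of mcm4.S, with 509 and 453 on the ICD arrays, 207 on DBM and 366 on HMM (0.76 ± 0.25 SE, limma adjusted p = 0.191). Its other copy mcm4.L had 1961 and 1389 with ICD, 732 with DBM and 1382 with HMM (0.70 ± 0.24). In both copies DBM was the low array, while the HMM signal of mcm4.L nearly equalled that of ICD replicate 2.

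For mcm5.L the order was different, since both ICD arrays, at 2074 and 2205, were above a DBM array at 1315 and an HMM array at 1427 that were close together (0.64 ± 0.21 SE, adjusted p = 0.202). Its copy mcm5.S was near the filter level, at 78.1 and 74.7 with ICD, 29.3 with DBM and 107 with HMM, so that ICD lay between the others. The other ring genes differed less. mcm2.L had 3024 and 2724 with ICD, 2232 with DBM and 2554 with HMM, and mcm3.L had 69.1 and 96.9 with ICD, 79.7 with DBM and 72.3 with HMM. mcm7.L had 7527 and 6397 with ICD, 5862 with DBM and 5771 with HMM, and mcm7.S 2869 and 3122 with ICD, 2609 with DBM and 2599.9 with HMM. The groups did not overlap for mcm2.L, mcm7.L and mcm7.S, but the differences of 0.20 to 0.26 were about the size of their SE of 0.22 to 0.27.

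MCM6 has a maternal form and a zygotic form in Xenopus, which the RefSeq synonyms assign to mcm6.L and to mcm6.2. The maternal form mcm6.L had 613 and 657 with ICD, 501 with DBM and 479 with HMM. The zygotic forms mcm6.2.L, with 1214 and 971 with ICD, 742 with DBM and 1176 with HMM, and mcm6.2.S, with 1066 and 927 with ICD, 635 with DBM and 1013 with HMM, were low on the DBM array alone. The log2 difference of DBM from HMM was -0.65 for mcm6.2.L and -0.66 for mcm6.2.S, against 0.06 for mcm6.L. These are single arrays, so no test applies to that contrast between the forms.

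The origin recognition complex, which marks origins for loading, showed no common direction. Of 6 probe sets 3 were above 0 and 3 below, with a median of -0.01 and 0 calls. orc1.L, the gene of its largest ATPase subunit, had 247 and 284 with ICD, 187 with DBM and 219 with HMM (0.36 ± 0.28 SE). At the other end orc4.L, another ATPase subunit gene, had 111 and 153 with ICD, 204 with DBM and 186 with HMM (-0.52 ± 0.32, adjusted p = 0.594), and was 1 of 2 members with both ICD arrays below the others. orc6.L, the gene of the smallest subunit, had 650.4 and 169.6 with ICD, 186 with DBM and 522 with HMM. With the offset of 17.99 added to each signal, its ICD arrays differed 3.56-fold, and ICD replicate 1 resembled HMM while ICD replicate 2 resembled DBM.

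Genes that turn the loaded ring into a helicase gave 0 calls and small differences. dbf4.L, the activating partner of Cdc7, had 2037 and 1975 with ICD, 1467 with DBM and 1635 with HMM (0.37 ± 0.21 SE, adjusted p = 0.549), and the kinase gene cdc7.L 76.3 and 88.6 with ICD, 63.8 with DBM and 66.7 with HMM (0.27 ± 0.33). Both had the ICD arrays on top, by amounts that did not pass the test. The 6 tested probe sets of GINS and cdc45 had a median of 0.00, from -0.26 for gins3.L (523 and 421 with ICD, 511 with DBM and 627 with HMM) to 0.23 for gins1.S (413 and 354 with ICD, 251 with DBM and 418 with HMM). Both ICD arrays lay above the others on 0 of those 6, and below them on 1, gins4.L, against 19.3% and 22.8% of all tested probe sets. mcm10.L, whose product supports helicase activation, had a difference of 0.36 ± 0.28. The MCM relatives of DNA repair, mcm8.L and mcm9.L, had 0.07 ± 0.28 and 0.45 ± 0.35. The first was flat, at 231 and 262 with ICD, 235 with DBM and 231 with HMM, and mcm9.L stood at 131 and 84.7 with ICD, 43.8 with DBM and 115 with HMM. wdhd1.L, whose product links the helicase to polymerase alpha, had 432 and 414 with ICD, 337 with DBM and 387 with HMM (0.22 ± 0.24).

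At the fork, the genes of RPA, the complex that coats single-stranded DNA, came next after cdc6 and cdt1 by group median against the DBM and HMM mean. Against HMM alone their median of 0.18 was below the 0.20 of the MCM ring. All 7 RPA probe sets were above 0, with a median of 0.49 and 0 calls. Without rescaling that median was -0.17, still 0.49 above that of all tested probe sets. rpa2.L had 1346 and 1334 with ICD, 751 with DBM and 1031 with HMM (0.60 ± 0.21 SE, limma adjusted p = 0.225). The ICD arrays were nearly equal there and stood above both others. rpa1.L with 0.50 ± 0.26 and rpa3.L with 0.43 ± 0.21 had the same order of arrays, ICD, then HMM, then DBM. The brightest of 3 rpa2.S probe sets had 95.8 and 243 with ICD, 69.9 with DBM and 126 with HMM, a pattern in which the ICD arrays lay on either side of HMM. That probe set is of a type Affymetrix marks as open to cross-hybridization. rpa3.S had 200.1 and 43.3 with ICD, 24.6 with DBM and 226 with HMM. Its log2 difference of DBM from HMM was -2.52, the furthest from 0 among the members. The DBM signal was below the filter level of 41.37, and that of ICD replicate 2 was close to it. With the offset added, the ICD arrays of rpa3.S lay 3.56-fold apart.

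The clamp and its loader had small differences, with a median of 0.18 over 7 probe sets and 0 calls. pcna.L, the sliding clamp gene, had 5577 and 6505 with ICD, 5199 with DBM and 4850.4 with HMM (0.26 ± 0.26 SE), while its copy pcna.S had 1005 and 1476 with ICD, 1024 with DBM and 1629 with HMM (-0.08 ± 0.25). Only the L copy kept the groups apart. The RFC probe sets ran from 0.03 for rfc5.L to 0.24 for rfc5.S.

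Polymerase and primase subunits gave a median of 0.16 over 12 probe sets, with 0 calls. Both ICD arrays lay on 1 side of the others on 0 of them. Over all tested probe sets 19.3% had both above and 22.8% both below. The highest value was that of pole4.L, a small histone-fold subunit of polymerase epsilon, with 964 and 603 with ICD, 355 with DBM and 725 with HMM (0.57 ± 0.28 SE), and the lowest that of pola1.S, the catalytic subunit of polymerase alpha, with 289 and 204 with ICD, 223 with DBM and 318 with HMM (-0.12 ± 0.30). pole2.L, another polymerase epsilon subunit gene, had 1060.5 and 1953 with ICD, 1364 with DBM and 1058 with HMM. pola2.L, the regulatory subunit of polymerase alpha, had 39.4 and 74.3 with ICD, 43.7 with DBM and 29.8 with HMM. Its signals with HMM and on ICD replicate 1 were below the filter level of 41.37. pola2.L and pole2.L were among the 3 members with the most positive DBM minus HMM difference. The values were 0.37 for pola2.L and 0.36 for pole2.L, beside cdc6.L with 0.37.

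The genes that finish lagging-strand fragments were split. fen1.S, a flap nuclease gene, had 319.5 and 390.3 with ICD, 251 with DBM and 317 with HMM (0.31 ± 0.26 SE), while fen1.L had 330.2 and 358 with ICD, 250.3 with DBM and 517 with HMM (-0.07 ± 0.25). Affymetrix marks the fen1.L probe set as one that can match related transcripts. The ligase gene lig1.L had a difference of 0.26 ± 0.29. rrm1.L, the large subunit of ribonucleotide reductase, ranged over its 3 probe sets from -0.01 ± 0.22 (1343 and 1657 with ICD, 1416 with DBM and 1585 with HMM) to 0.36 ± 0.30 (631 and 379.5 with ICD, 272 with DBM and 519 with HMM). top2a.L, the topoisomerase that untangles copied chromosomes, had 3098 and 2907 with ICD, 2535 with DBM and 2852 with HMM (0.16 ± 0.22).

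Compared with each RNA alone, the members' values lay further from 0 against DBM than against HMM. Both comparisons use the same ICD arrays. Against DBM the median was 0.38, with 61 of 67, or 91.0%, above 0, where 51.6% of all tested probe sets were. Against HMM it was 0.10, with 41, or 61.2%, above 0, where 45.1% of all were. limma called 0 members against DBM, where 2.32% of all probe sets passed, and 0 against HMM, where 1.74% did. At an unadjusted limma p under 0.05 there were 13 members higher, or 19.4%, and 0 lower against DBM. Over all tested probe sets 4.47% were higher and 7.19% lower. Against HMM 4 members were higher, or 5.97%, and 0 lower, beside 5.73% higher and 6.77% lower over all. The share higher against HMM was thus near the background, and all 4 were cdc6 and cdt1 probe sets. The lowest adjusted p against DBM was 0.0892, that of the brightest cdt1.L probe set (2.25-fold), and the lowest against HMM 0.0542, that of cdc6.L (2.58-fold). Among the ring genes mcm4.L had 1.15 against DBM and 0.25 against HMM, and the dim mcm5.S had 1.00 against DBM and -0.41 against HMM, while mcm5.L had 0.69 and 0.58. Taking the ICD arrays singly, the median against DBM was 0.39 for ICD replicate 1 and 0.41 for ICD replicate 2, and against HMM 0.09 for each.

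By role, the medians against DBM and against HMM were 0.92 and 1.02 for cdc6 and cdt1, 0.54 and 0.20 for the MCM ring, 0.82 and 0.18 for RPA, 0.25 and -0.23 for the origin recognition complex, and 0.25 and -0.21 for the clamp and its loader. Among these groups the cdc6 and cdt1 medians were of like size and the same sign against both, while the last 2 changed sign. The cdc6 and cdt1 group has 5 probe sets, most of them of cdt1.L. Within it cdc6.S differed, at 0.89 against DBM and 0.20 against HMM.

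The DBM array was low for many members relative to HMM. The median log2 difference of DBM from HMM was -0.32 over the members and -0.02 over all tested probe sets. Below 0 were 50 of 67 members, or 74.6%, against 52.4% of all tested probe sets. DBM was lower by over 1.5-fold on 24 members, or 35.8%, against 11.0% of all tested probe sets, and higher by over 1.5-fold on 0 members against 11.3%. The lowest values after rpa3.S were those of orc6.L and mcm5.S, both at -1.40. RPA had a median of -0.50 and the clamp and its loader -0.66, while cdc6 and cdt1 had 0.12. In that last group 2 of 5 probe sets were below 0, cdc6.S at -0.69 and the brightest of cdt1.L at -0.15. With 1 array on each side the difference of DBM from HMM has no replicate check.

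**Figure D3:**
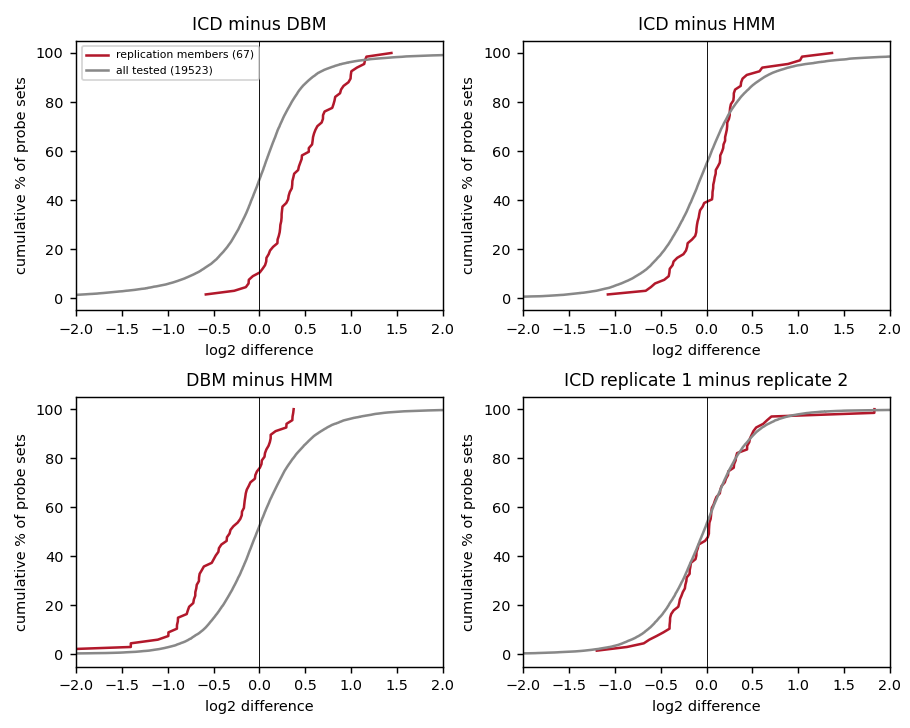
Cumulative share of probe sets (percent) against the log2 difference, for the 67 replication members and for all 19523 tested probe sets, in 4 comparisons, with the axis limited to the range from -2 to 2. The members run to the right of the table for ICD minus DBM (median 0.38), less so for ICD minus HMM (0.10), to the left for DBM minus HMM (-0.32), and along it for ICD replicate 1 minus replicate 2 (0.03).

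The gap between DBM and HMM ran alongside the gap between the ICD arrays, and these pairs have no array in common. Across the 67 members the difference of ICD replicate 1 from replicate 2 correlated with that of DBM from HMM at r = -0.65, and across all tested probe sets at r = -0.64. Without rpa3.S and orc6.L it was -0.47 over 65 probe sets. The members' signs paired ICD replicate 1 with HMM on 47 of 67 probe sets, 70.1% against 69.5% over all. The pattern was thus present across the table. It also appeared in single genes outside the group, such as the cadherin gene cdh1.S, with 2148 and 74.2 on the ICD arrays, 91.5 on DBM and 1246 on HMM. The labels name no factor that would join these arrays. The ratio of the 3' to the 5' control probe set of gapdh, a measure of RNA quality, followed the same pairing. It was 1.93 for ICD replicate 1 and 1.61 for HMM, against 1.30 for ICD replicate 2 and 1.29 for DBM. The same ratios of actin and ef1a did not pair the arrays in this way, and were highest for DBM and ICD replicate 1. For actin these were 7775 and 6409, against 2662 for ICD replicate 2 and 1523 for HMM. For ef1a they were 0.39 and 0.29, against 0.066 for ICD replicate 2 and 0.19 for HMM. With actin ratios from 1523 to 7775 and ef1a ratios from 0.066 to 0.39, neither is read here as a measure of RNA quality. The part of this pattern, or of RNA quality, in the members' differences was not tested.

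**Figure D4:**
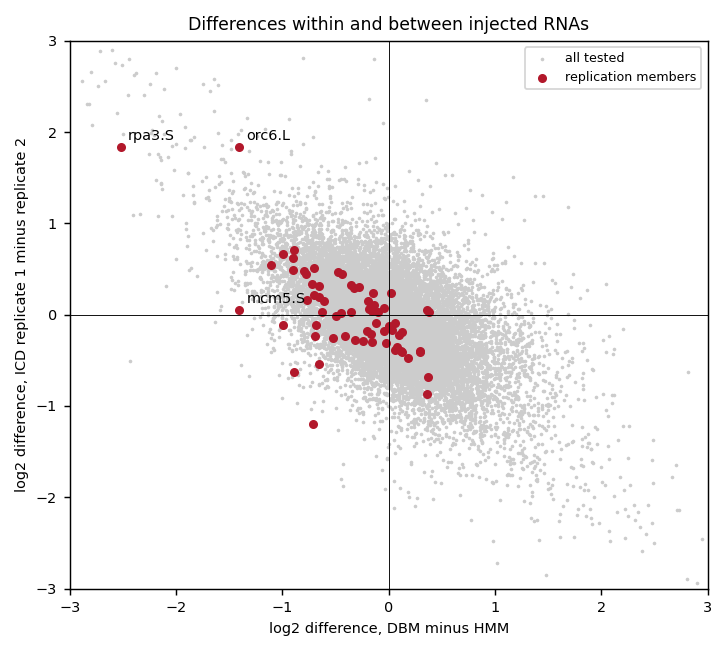
Log2 difference of ICD replicate 1 from replicate 2 against that of DBM from HMM, for all tested probe sets (grey, those within 3 of 0 on both axes) and the 67 members (red). Members and table share the downward slope (r = -0.65 and -0.64), with rpa3.S and orc6.L at 1.83 on the vertical axis.

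By summed signal, the ICD arrays lay apart from DBM and HMM in some lists of cell type markers and overlapped them in others. The summed signal of all members was 61167 and 59840 with ICD, 44956 with DBM and 52689 with HMM. In the multiciliate cell list 6 of 8 genes had probe sets. All 7 of its tested probe sets fell with ICD (limma adjusted p under 0.05), against 2.04% of all tested probe sets. Its summed signal was 1040 and 1164 with ICD, 16911 with DBM and 8579 with HMM, and none was listed at 0, the lowest being mcidas.S at 5.47 and 21.2 with ICD, against 1523 with DBM and 773 with HMM. The arrays thus had opposite orders in the 2 sums, ICD then HMM then DBM for the replication genes and DBM then HMM then ICD for the multiciliate cell markers. The endoderm list below also had the order DBM then HMM then ICD. The part of multiciliate cells in the members' values was not tested.

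**Figure D5:**
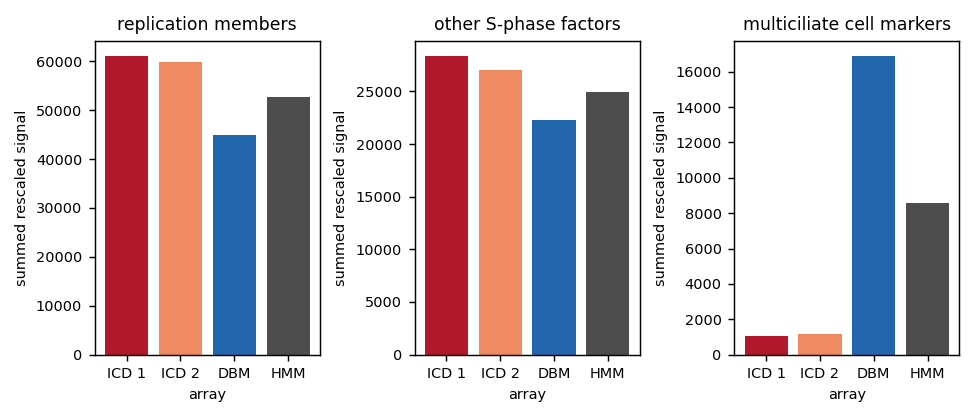
Summed rescaled signal per array of the replication members, of other S-phase factors and of multiciliate cell markers, each on its own axis from 0. ICD arrays are highest for the replication members (61167 and 59840, against 44956 with DBM and 52689 with HMM) and lowest for the multiciliate cell markers (1040 and 1164, against 16911 with DBM and 8579 with HMM).

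The other marker lists were as follows. Epidermal ectoderm markers, for 8 of 12 genes, summed to 75366 and 54068 with ICD, 63191 with DBM and 58318 with HMM. Of 16 tested probe sets 3 were higher and 2 lower with ICD (limma adjusted p under 0.05). Over all tested probe sets 1.9% were higher and 2.04% lower, the background for each list here. The sum was large on every array, but single markers of the labelled tissue were low on some. The brighter tp63.S probe set had 325 and 462 with ICD, 72.7 with DBM and 26.6 with HMM, and cdh1.S varied as given above. Neural ectoderm markers, for 5 of 6 genes, summed to 6038 and 11566 with ICD, 3778 with DBM and 2178 with HMM, with 3 of 9 higher and 0 lower. Both tested pax6.L probe sets of this list went the other way, with log2 differences of -1.02 and -1.78 that did not pass the test. Endoderm markers, for 9 of 10 genes, summed to 594 and 670 with ICD, 2012 with DBM and 1840 with HMM, with 4 of 10 lower, and mesoderm markers, for 8 of 9 genes, to 277 and 565 with ICD, 832 with DBM and 528 with HMM, with 1 of 5 lower. Their part in the members' differences was not tested either.

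Further genes of S phase, a list of checkpoint, fork, chromatin assembly and degradation factors, had mostly small positive differences. Of 46 tested probe sets 0 passed against the mean of DBM and HMM, 4 had an unadjusted p under 0.05 on the higher side and 0 on the lower, against 5.87% higher and 8.27% lower over all tested probe sets. The median was 0.17 and 37 were above 0. Both ICD arrays lay above the others on 17 of the 46 and below them on 3, against 19.3% and 22.8% of all tested probe sets. skp2.L, the substrate receptor of a ubiquitin ligase that acts on cell cycle inhibitors, had 3472 and 2489 with ICD, 1282 with DBM and 1567 with HMM (1.04 ± 0.25 SE, limma adjusted p = 0.0805). rad9a.L, a subunit of the checkpoint clamp, had 181 and 163 with ICD, 75.3 with DBM and 70.1 with HMM (1.07 ± 0.32, adjusted p = 0.155). Against DBM alone 1 of the 46 passed, near the background of 2.32% of all tested probe sets. That was nasp.S, a histone chaperone gene, at 886 and 854 with ICD, 292 with DBM and 913 with HMM (1.52, limma adjusted p = 0.0387). Its HMM signal was thus at the level of the ICD arrays. Genes of nucleotide supply had a median of -0.02 over 11 tested probe sets, with 5 above 0 and 0 calls or unadjusted p under 0.05.

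Where both copies of a member were tested, which held for 10 genes, the L and S differences had the same sign in 8, the exceptions being fen1 and pcna. They lay a median of 0.23 apart on the log2 scale, below the median SE of 0.26 for a single member. The widest gap was that of cdc6, 0.64, where the L copy passed and the S copy did not. The difference between the copies was not tested, and probe sets can cross-hybridize between homeologs.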

How the data were processed

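The authors summarised each probe set of each array to a linear MAS5 signal intensity before depositing it, per the submitters' processing notes, and the MAS5 version is not given in the sources used here. Gene names came from the platform annotation, and all 69 members had an Entrez Gene identifier in the RefSeq gene table. No genome or sequence table was used. Each array was rescaled to the common mean of the 2% trimmed means (329.6), signals were put on the log2 scale with an offset of 0.25 times the median rescaled signal, and probe sets under the 40th percentile of mean rescaled signal (41.37) were left out.

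limma 3.58.1 in R 4.3.3 was fitted to all tested probe sets with 1 mean per injected RNA and an intensity trend. Tests were two-sided, at a Benjamini-Hochberg adjusted p of 0.05. Only the ICD pair leaves a residual degree of freedom (1, beside 5.82 prior ones), so DBM and HMM are assumed to vary like ICD. The pipeline was tested on simulated data, where false calls exceeded the nominal rate. There a log2 change of 1 was recovered on 5 of 50 probe sets, and a log2 change of 2 on 38 of 50. A role with 0 calls may thus still hold changes of the smaller size. Figures used matplotlib 3.10.9 in Python 3.11.15.

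The members and lists were chosen with earlier results of these data known. Values by array are given for any member called, for all tested cdc6, cdt1 and MCM2 to MCM7 probe sets, for the highest and lowest of each other group, for the 3 members at each end of DBM minus HMM, and for the 3 whose ICD arrays differ most. Genes named outside this rule (geminin excepted) were chosen after their values were seen. Alternatives covered the rescaling, offset, filter, trend, grouping and each array left out. The planned search for promoter motifs was not run, because no promoter sequence was used here.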

Additional observations from a re-analysis of the deposited data

How the results depend on the processing

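No paired analysis was possible because the labels name no clutch or other factor that would pair the arrays. The count of members called against the DBM and HMM mean (2) was 2 or 3 with quantile normalization, with either other offset, with a 60th percentile filter and at a threshold of 0.1. It was 0 without rescaling, without the dim filter, without the trend, with DBM and HMM as 1 group, without DBM and without HMM. It was also 0 without either ICD array, which was run with DBM and HMM as 1 group and so changes 2 choices together, the grouping alone giving 0. Calls over all probe sets (768) were 0 without rescaling, 411 with DBM and HMM as 1 group, and 62 (without ICD replicate 2, DBM and HMM as 1 group) to 427 (without HMM) with an array left out. Against DBM and against HMM the counts of 0 members became 1 each at a threshold of 0.1, and against HMM 1 with quantile normalization and with the 60th percentile filter.

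The members' median of 0.25 ran from 0.10 to 0.38 with an array left out. Without rescaling it was -0.46, where the median of all probe sets was -0.66, so the members stood 0.20 above the table, against 0.26 with rescaling. The same setting gave -0.30 against DBM, -0.52 against HMM and -0.23 for DBM against HMM. Against DBM the median was 0.41 with quantile normalization, 0.35 with an offset of 1 times and 0.40 with 0.05 times the median signal, 0.37 with 1 probe set per symbol, and 0.39 to 0.41 without an ICD array. Against HMM it was 0.15 with quantile normalization, 0.082 (offset of 1 times), 0.09 without the dim filter, 0.11 with 1 probe set per symbol, and 0.088 to 0.095 without an ICD array. DBM against HMM was -0.27 with an offset of 1 times. The cause of these changes was not tested. The unscaled values keep the low trimmed mean of ICD replicate 1, 150.7. Among 461 values of the 39 named members over the settings, 397 kept sign and side of the threshold, 16 fell below it, all of cdc6.L and cdt1.L, 1 passed it and 47 changed sign without being called in either setting.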
